A study of Homo sapiens with 12 samples.

Results

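The BCL2 family decides at the outer membrane of the mitochondrion whether a stressed cell survives. Anti-apoptotic members such as MCL1, BCL-XL (encoded by BCL2L1) and BCL2 hold back the pore-forming effectors BAX and BAK (encoded by BAK1). BH3-only members, among them BIM (encoded by BCL2L11), BMF, NOXA (encoded by PMAIP1), PUMA (encoded by BBC3) and BIK, bind the anti-apoptotic members, and some also activate the effectors. In squamous carcinoma cells that rely on the epidermal growth factor receptor (EGFR), BIM and BMF are known for being held low by growth factor signalling. The genes described here were the 10 of these names, BCL2L11, BMF, PMAIP1, BBC3, BIK, BAX, BAK1, MCL1, BCL2L1 and BCL2, taken by symbol from tables that hold 33514 gene symbols. All 10 were present and all 10 passed the filter on low counts.

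Single-cell RNA sequencing was performed on 3 head and neck squamous cell carcinoma lines, SCC1, SCC6 and SCC25, each an established line grown alone in DMEM and Ham's F12 with foetal bovine serum. Cells received cetuximab, an antibody that blocks EGFR, at 100 nM every day for 5 days, or PBS (untreated). Each of the 6 combinations of line and treatment had 2 replicates, giving 12 samples. Whether the replicates were separate cultures is not given in the sources used here. The p-values therefore rest on a spread between replicates that may be technical. For the effect over the 3 lines, that spread also holds differences of the effect between lines.

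The samples held 961 to 2854 cells each, 23914 in all, with 57057402 to 112170073 unique molecular identifiers (UMIs, one per captured RNA molecule) per sample and a median of 24078.5 to 54864 UMIs per cell. The median share of mitochondrial UMIs per cell was 2.49% to 5.67%. Between 3 and 10 barcodes occurred in both samples of a pair of replicates, and 1 to 13 in any 2 samples from different groups. As a check of the labelled cell type, 10 squamous epithelial markers together gave 3500 to 15676 CPM (UMIs of the gene scaled by the library's effective size, the usual per-library unit) in each sample, 5 of them above 10 CPM in all 12 samples and 5 (DSG3, KRT14, KRT5, KRT6A and TP63) at 10 CPM or less in at least 1 sample. Of 10 markers of blood, endothelial and liver cells, CD68, a lysosomal gene, reached 205 CPM in SCC25, and the other 9 together stayed at or below 2.90 CPM in every sample. SCC6 stood apart in depth, since the first cetuximab replicate had a median of 24078.5 UMIs per cell and the second 50156.

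The shared feature of the family is the BH3 segment, and the 10 genes are printed here with the stretch that encodes its core, since all results below concern genes that carry it. Capitals mark 6 codons that spell leucine, 3 variable residues, glycine or alanine, and aspartate, with 9 bases on either side. Each of the 10 canonical coding sequences of GENCODE release 44 held exactly 1 such match in frame, whereas 4795 of 19220 canonical coding sequences, or 24.9%, held at least 1, so the letters alone do not define the family.
BCL2L11: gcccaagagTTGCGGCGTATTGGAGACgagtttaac
BMF: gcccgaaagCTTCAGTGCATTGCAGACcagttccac
PMAIP1: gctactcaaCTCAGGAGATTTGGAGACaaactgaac
BBC3: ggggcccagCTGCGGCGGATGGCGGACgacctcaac
BIK: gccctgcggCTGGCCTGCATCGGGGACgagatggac
BAX: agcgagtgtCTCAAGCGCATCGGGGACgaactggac
BAK1: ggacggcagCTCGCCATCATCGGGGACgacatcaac
MCL1: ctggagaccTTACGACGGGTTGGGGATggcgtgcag
BCL2L1: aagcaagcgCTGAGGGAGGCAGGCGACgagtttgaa
BCL2: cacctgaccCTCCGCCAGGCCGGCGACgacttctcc

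The match began at codon 29 of the 54 codons of PMAIP1, the shortest coding sequence, and at codon 213 of the 350 codons of MCL1, the longest. In the BH3-only genes BCL2L11 and BMF it lay late, at codon 152 of 198 and codon 137 of 184. In the anti-apoptotic genes BCL2L1 and BCL2 it lay at codon 90 of 233 and codon 97 of 239.

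Each RNA molecule was counted once at its 3′ end, so CPM values of different genes were not scaled by length. How fully the molecules of each gene were captured and assigned was not measured, so the order below is one of counted molecules. Over the 12 samples the mean level was highest for BAX at 153 CPM, followed by MCL1 at 94.1, PMAIP1 at 70.2, BCL2L1 at 49.1, BAK1 at 26.3, BIK at 19.98, BBC3 at 19.1, BCL2L11 at 12.2 and BMF at 6.47 CPM. BCL2 was lowest at 0.583 CPM, with 7 to 172 UMIs per sample, so its values are the least precise of the 10. Among these 10 genes, the effector BAX and the survival gene MCL1 thus had the most counted molecules. The BH3-only genes among the 10 other than PMAIP1 had few. BID and BAD, BH3-only genes outside the 10, had more, at 138 to 433 CPM and 87.2 to 299 CPM over the 12 samples. The neighbours BIK and BBC3 in this order overlapped widely from sample to sample.

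**Figure D1:**
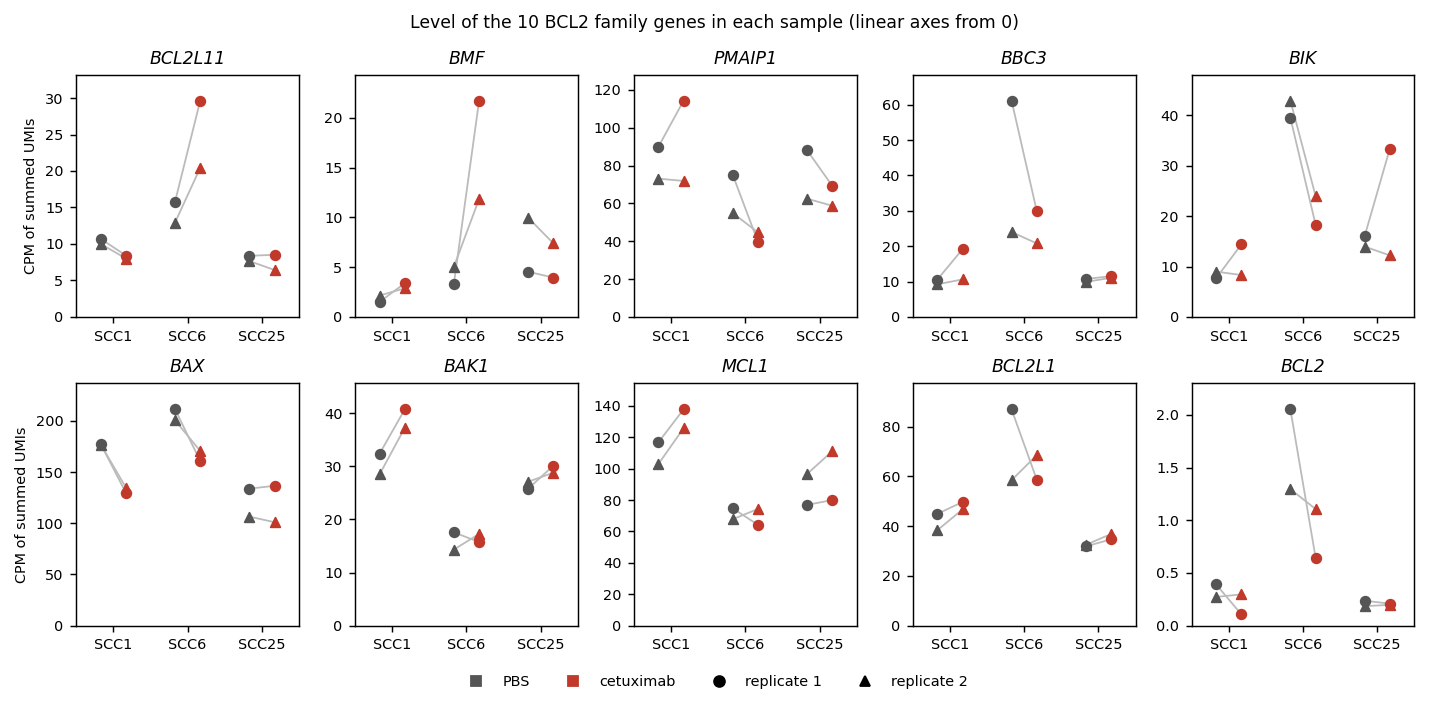
Level of each of the 10 genes (CPM, linear axis from 0) in the 12 samples, with grey symbols for PBS, red symbols for cetuximab, circles for replicate 1, triangles for replicate 2 and lines joining samples with the same replicate number. BMF in SCC6 rises from 3.31 and 5.03 CPM to 21.7 and 11.8 CPM, while in SCC25 the PBS and cetuximab symbols overlap.

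The first comparison asked whether the untreated lines differed in these genes before any EGFR block. SCC6 carried more of the BH3-only genes BBC3 and BIK and of the anti-apoptotic genes BCL2L1 and BCL2 than SCC1, and less of the effector BAK1 and of MCL1. Of the 10 genes, 6 passed the threshold in edgeR's quasi-likelihood test with a false discovery rate (FDR) under 0.05 over all 17897 genes tested, 4 higher and 2 lower in SCC6. Of all genes 40.2% passed in this comparison, 21.5% higher and 18.6% lower. The median log2 difference of the 10 genes was 0.64, against 0.00 over all genes tested.

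BIK, first found as a partner of the survival proteins, had 39.5 and 43.0 CPM in the untreated SCC6 replicates and 7.66 and 8.99 CPM in SCC1. Every SCC6 value lay above every SCC1 value, and the log2 difference was 2.31 ± 0.43 (SE, edgeR FDR = 0.00191). BBC3, a direct p53 target, had 61.2 and 24.0 CPM in SCC6 and 10.5 and 9.23 CPM in SCC1. The SCC6 replicates differed more from each other than the SCC1 replicates did, but both lay above SCC1, with a log2 difference of 2.11 ± 0.42 (SE, edgeR FDR = 0.00283). Without the first PBS replicate of SCC6 it was 1.28 (edgeR FDR = 0.0218).

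BCL2, the founding member of the family, had 2.05 and 1.30 CPM in SCC6 and 0.391 and 0.272 CPM in SCC1, a log2 difference of 2.34 ± 0.49 (SE, edgeR FDR = 0.00367). It was low in every line next to the other survival genes. BCL2L1 had 87.0 and 58.5 CPM in SCC6 and 44.9 and 38.4 CPM in SCC1, a log2 difference of 0.81 ± 0.22 (SE, edgeR FDR = 0.0139). The call for BCL2L1 was lost without the first PBS replicate of SCC6, where the log2 difference was 0.49 (edgeR FDR = 0.115), and without the second PBS replicate of SCC1 (log2 0.70, edgeR FDR = 0.112). BAK1 had 17.6 and 14.3 CPM in SCC6 and 32.4 and 28.5 CPM in SCC1, a log2 difference of -0.93 ± 0.19 (SE, edgeR FDR = 0.00279). MCL1, a short-lived survival protein, had 74.7 and 67.7 CPM in SCC6 and 117 and 103 CPM in SCC1, without overlap. Its log2 difference was -0.63 ± 0.21 (SE, edgeR FDR = 0.0401), and this call was lost when any 1 of the 4 samples was left out (edgeR FDR = 0.0890 to 0.194).

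SCC25 differed from SCC1 in 2 of the 10 genes, where 40.8% of all genes passed (23.4% higher and 17.3% lower in SCC25). BMF, whose product is tied to the cytoskeleton until stress or loss of adhesion frees it, had 4.53 and 9.96 CPM in untreated SCC25 and 1.51 and 2.15 CPM in SCC1. The log2 difference was 1.98 ± 0.47 (SE, edgeR FDR = 0.00724), and it missed the threshold without the second PBS replicate of SCC25 (log2 1.30, edgeR FDR = 0.0606) or without the first PBS replicate of SCC1 (log2 1.75, edgeR FDR = 0.0624). BAX had 134 and 106 CPM in SCC25 and 177 in both replicates of SCC1, a log2 difference of -0.56 ± 0.20 (SE, edgeR FDR = 0.0439). That call was lost without either replicate of SCC1 (edgeR FDR = 0.142 and 0.144) and without the second of SCC25 (log2 -0.41, edgeR FDR = 0.221).

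Against SCC6, SCC25 was lower in 6 of the 10 genes and higher in BAK1, where 40.9% of all genes passed (22.2% higher and 18.7% lower in SCC25). The 6 lower genes included BH3-only, effector and anti-apoptotic members alike. BCL2 differed by -2.99 ± 0.51 on the log2 scale (SE, edgeR FDR = 0.00116), BBC3 by -2.05 ± 0.42 (edgeR FDR = 0.00337) and BCL2L1 by -1.18 ± 0.22 (edgeR FDR = 0.00199). BIK differed by -1.46 ± 0.42 (edgeR FDR = 0.0180), BCL2L11 by -0.84 ± 0.24 (edgeR FDR = 0.0168) and BAX by -0.78 ± 0.20 (edgeR FDR = 0.0103), whereas BAK1 was higher by 0.73 ± 0.18 (edgeR FDR = 0.0101). Without the second PBS replicate of SCC25 the calls fell from 7 to 4, BBC3, BAK1, BCL2L1 and BCL2. BBC3 stood at -1.23 without the first PBS replicate of SCC6 (edgeR FDR = 0.0276). BIK missed the threshold when any 1 of the 4 samples was left out (edgeR FDR = 0.0524 to 0.0883), BCL2L11 also without the first PBS replicate of SCC6 (edgeR FDR = 0.0896) and BAK1 without the second (edgeR FDR = 0.0636). PMAIP1 was called between no pair of untreated lines, at 89.9 and 73.1 CPM in SCC1, 75.1 and 55.0 CPM in SCC6 and 88.2 and 62.5 CPM in SCC25.

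The balance between members followed from these levels. The ratio of MCL1 to BCL2L1 lay between 0.858 and 1.16 in the 4 SCC6 samples, PBS or cetuximab, and between 2.30 and 3.01 in the 8 samples of SCC1 and SCC25, with no overlap. The ratio of BAX to BAK1 lay between 9.87 and 13.99 in SCC6 and between 3.18 and 6.20 in the other lines, again with no overlap. SCC6 thus had about as many counted BCL2L1 as MCL1 molecules, and the widest gap between the counts of the effectors. These ratios were not tested separately, since they combine genes whose tests are given above. Among the 10 genes, the sum of the 5 BH3-only over the sum of the 3 anti-apoptotic genes ranged from 0.588 to 1.19 over the 12 samples. This ratio overlapped between lines and between treatments. BID and BAD, given above, are not in it.

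The second comparison asked how these genes changed with cetuximab in each line. In SCC6 the BH3-only gene BMF rose, and BCL2L11 and PMAIP1, which missed the threshold in the same fit, moved in opposite directions past it once the replicates were paired. In edgeR without that pairing 1 of the 10 genes passed, where 3.81% of all genes passed. DESeq2, also without pairing, called 2 of the 10, BMF and BCL2L11, and 9.28% of all genes. With the replicate number as a block, which compares each cetuximab sample with the PBS sample of the same number, 3 of the 10 genes passed and 20.1% of all genes did. The median log2 change of the 10 genes in SCC6 was -0.25, against 0.00 over all genes.

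BMF had 3.31 and 5.03 CPM in the PBS replicates of SCC6 and 21.7 and 11.8 CPM in the cetuximab replicates. Both treated values lay above both untreated values, and the first pair moved further than the second. The log2 change was 2.01 ± 0.46 (SE, edgeR FDR = 0.0421), and 1.97 ± 0.33 with the replicate block (edgeR FDR = 0.00663). Leaving out any 1 of the 4 SCC6 samples kept the direction, with log2 changes of 1.51 to 2.37, but took the call past the threshold (edgeR FDR = 0.0521 to 0.303). It was lost as well when the 4 SCC6 samples were fitted without the other lines (edgeR FDR = 0.0570).

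BCL2L11, which encodes BIM, had 15.8 and 12.9 CPM with PBS and 29.7 and 20.4 CPM with cetuximab in SCC6. The groups did not overlap, and both pairs rose, by 0.87 and 0.62 on the log2(CPM + 1) scale. The log2 change was 0.80 ± 0.24 (SE, edgeR FDR = 0.0905) without the block and 0.79 ± 0.14 with it (edgeR FDR = 0.00767), and DESeq2 without a block gave 0.79 (DESeq2 FDR = 0.0243).

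PMAIP1, which encodes NOXA, a partner of MCL1, had 75.1 and 55.0 CPM with PBS and 39.7 and 44.6 CPM with cetuximab in SCC6. Both treated values lay below both untreated values. The log2 change was -0.63 ± 0.28 (SE, edgeR FDR = 0.245) without the block and -0.61 ± 0.18 with it (edgeR FDR = 0.0445).

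BIK had 39.5 and 43.0 CPM with PBS and 18.3 and 24.0 CPM with cetuximab in SCC6, with no overlap, and a log2 difference of -0.96 ± 0.41 (SE, edgeR FDR = 0.229, and 0.0555 with the block). It did not pass in either fit. BBC3 had 61.2 and 24.0 CPM with PBS and 29.9 and 20.8 CPM with cetuximab, and these ranges overlapped (log2 -0.75 ± 0.41, edgeR FDR = 0.341). Its value rested on the first PBS replicate, without which the log2 difference was 0.070. The composition of the BH3-only genes in SCC6 differed accordingly: BMF and BCL2L11 together made up 9.79% and 12.8% of the summed BH3-only CPM with PBS and 36.9% and 26.5% with cetuximab. In the other 8 samples that share was 7.39% to 16.9%. The summed level itself was 195 and 140 CPM with PBS and 139 and 122 CPM with cetuximab. BID and BAD are not in this sum, so the share among all BH3-only genes was smaller. In SCC6 BID had 433 and 365 CPM with PBS and 242 and 281 CPM with cetuximab. BAD had 95.9 and 101 CPM with PBS and 87.2 and 103 CPM with cetuximab.

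**Figure D2:**
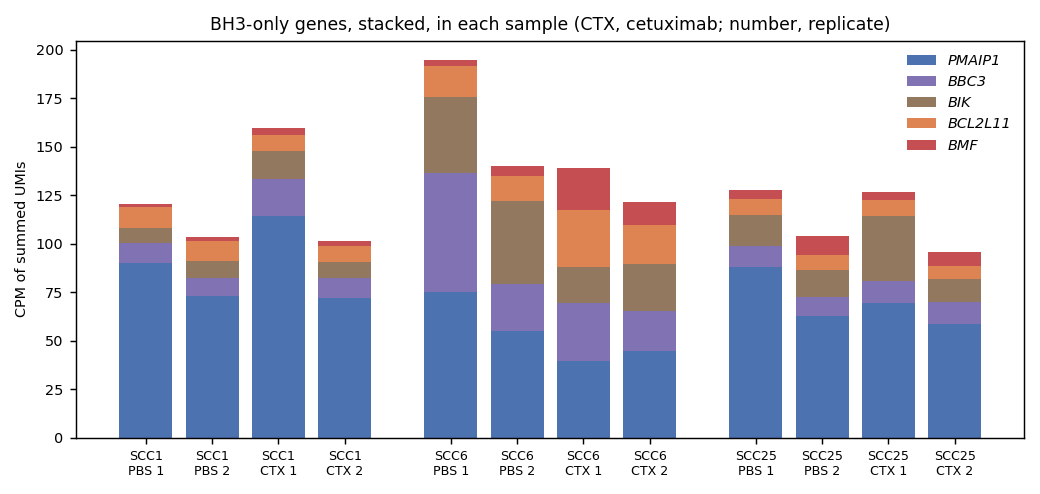
Stacked levels (CPM, linear axis from 0) of the 5 BH3-only genes in each of the 12 samples, where CTX is cetuximab and the number is the replicate. PMAIP1 makes up 54.7% to 74.7% of the stack in SCC1 and SCC25 and 28.5% to 39.3% in SCC6, and the BMF and BCL2L11 segments are widest in the cetuximab samples of SCC6.

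Among the effectors and survival genes of SCC6, none passed in either fit. BAX, the most abundant member, had 211 and 200 CPM with PBS and 161 and 170 CPM with cetuximab, with no overlap, a log2 difference of -0.31 ± 0.20 (SE, edgeR FDR = 0.415). BAK1 had 17.6 and 14.3 CPM with PBS and 15.7 and 17.3 CPM with cetuximab, and MCL1 had 74.7 and 67.7 CPM and then 64.2 and 74.3 CPM. These groups overlapped, with log2 differences of 0.05 ± 0.18 for BAK1 and -0.04 ± 0.21 for MCL1. BCL2L1, at 87.0 and 58.5 CPM with PBS and 58.7 and 68.6 CPM with cetuximab, overlapped as well (log2 -0.19 ± 0.22). BCL2 had 2.05 and 1.30 CPM with PBS and 0.644 and 1.11 CPM with cetuximab, a log2 difference of -0.93 ± 0.46 (SE, edgeR FDR = 0.291).

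In SCC1 none of the 10 genes passed in edgeR with or without the block or in DESeq2, while an unadjusted p under 0.05 was found for 0 genes in edgeR without the block, 4 with it and 2 in DESeq2 (BAX and BAK1). Here 0.0168% of all genes passed without the block, 4.45% with it and 1.51% in DESeq2. The smallest unadjusted p in edgeR without the block was that of BAX, which had 177 CPM in both PBS replicates and 129 and 135 CPM with cetuximab, a log2 difference of -0.42 ± 0.20 (SE, edgeR FDR = 0.597, and 0.0834 with the block). BAK1 lay the other way without overlap, at 32.4 and 28.5 CPM with PBS and 40.8 and 37.3 CPM with cetuximab (log2 0.36 ± 0.18, edgeR FDR = 0.652). The 2 effectors therefore had log2 differences of opposite sign in SCC1.

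BMF in SCC1 had 1.51 and 2.15 CPM with PBS and 3.39 and 2.88 CPM with cetuximab, a log2 difference of 0.77 ± 0.46 (SE, edgeR FDR = 0.730). BCL2L11 had 10.7 and 10.0 CPM with PBS and 8.410 and 8.0045 CPM with cetuximab, a log2 difference of -0.33 ± 0.24 (SE, edgeR FDR = 0.802). Neither pair of groups overlapped, and neither passed. MCL1 had 117 and 103 CPM with PBS and 138 and 126 CPM with cetuximab (log2 0.26 ± 0.21), also without overlap. PMAIP1, BBC3 and BIK had log2 differences of 0.19, 0.59 and 0.45, each with its higher value in the first pair, BCL2L1 one of 0.21, and BCL2, at 7 to 28 UMIs per sample, one of -0.67. The median over the 10 genes was 0.24, against 0.00 over all genes.

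In SCC25 none of the 10 genes passed and none had an unadjusted p under 0.05 in edgeR, and DESeq2 and the block called none. No gene of the whole table passed there without the block (0.0%), although 1041 had an unadjusted p under 0.05 and DESeq2 called 101 (0.564%). With the block 0.978% of all genes passed. BCL2L11 had 8.37 and 7.66 CPM with PBS and 8.52 and 6.43 CPM with cetuximab, and BMF had 4.53 and 9.96 CPM and then 3.95 and 7.39 CPM. Both genes overlapped between treatments, with log2 differences of -0.10 ± 0.24 and -0.35 ± 0.45. The second replicate had more BMF than the first under both treatments, so the spread between replicates was wider than the difference between treatments. BIK had the largest log2 difference of the 10 in this line, 0.61 ± 0.41 (SE, edgeR FDR = 0.965), with 16.0 and 13.97 CPM with PBS and 33.4 and 12.2 CPM with cetuximab, and only the first pair was higher with cetuximab. The other 7 genes had log2 differences between -0.24 and 0.16.

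**Figure D3:**
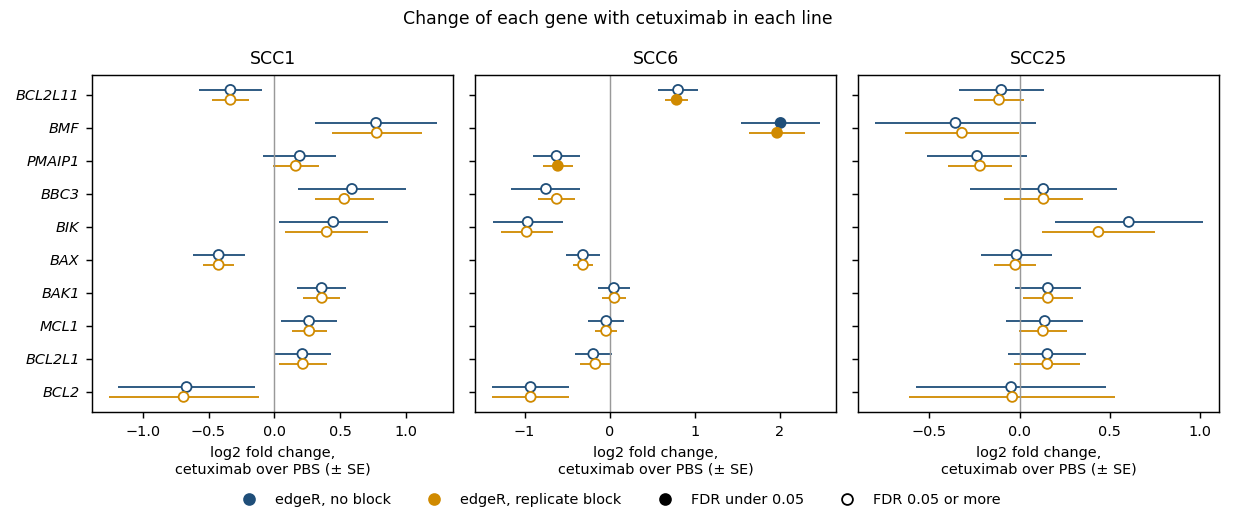
Log2 fold change of each gene with cetuximab over PBS in SCC1, SCC6 and SCC25 (edgeR; horizontal bars are 1 SE; each panel has its own linear scale), without (blue) and with (orange) the replicate number as a block. Filled circles have an FDR under 0.05; BMF in SCC6 is filled in both fits, and BCL2L11 and PMAIP1 in SCC6 are filled with the block.

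The third comparison asked whether the response differed between lines. A test for any difference of the cetuximab effect among the 3 lines passed for none of the 10 genes in edgeR, with or without the block, or in DESeq2, although BCL2L11 (edgeR FDR = 0.536), BMF (edgeR FDR = 0.508) and BIK (edgeR FDR = 0.656) had an unadjusted p under 0.05. No gene of the whole table passed without the block (0.0%, with 1318 at an unadjusted p under 0.05 and 287, or 1.60%, called by DESeq2), and 1.29% passed with it. Between pairs of lines, the change of BCL2L11 in SCC6 minus that in SCC1 was 1.14 ± 0.33 on the log2 scale (SE, edgeR FDR = 0.345). The blocked fit gave 1.1199 ± 0.20 (edgeR FDR = 0.0353), where 1.67% of all genes passed. For SCC25 minus SCC1 0.0224% and for SCC25 minus SCC6 0.609% passed with the block, and none of the 10 genes did. BCL2L11 was therefore the member whose response was separated between 2 lines, with the block only. For BMF the change in SCC25 minus that in SCC6 was -2.36 ± 0.64 (SE, edgeR FDR = 0.357), and the change in SCC6 minus that in SCC1 was 1.24 ± 0.64 (SE, edgeR FDR = 0.683).

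The mean effect over the 3 lines was past the threshold for none of the 10 genes in edgeR with or without the block, or in DESeq2, where 3.67% of all genes passed without the block, 11.6% with it and 9.90% in DESeq2. In both edgeR fits BAX was the 1 gene with an unadjusted p under 0.05, and in DESeq2 BMF and BCL2 had one as well. BAX had a log2 difference of -0.25 ± 0.11 (SE, edgeR FDR = 0.234). It was lower with cetuximab in 5 of the 6 pairs of samples with the same replicate number. BMF had 0.81 ± 0.38 (edgeR FDR = 0.255), BCL2 -0.59 ± 0.29 (edgeR FDR = 0.270) and BAK1 0.19 ± 0.10 (edgeR FDR = 0.325).

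The change of BMF, BCL2L11 and PMAIP1 in SCC6 was next followed from the summed counts to the single cells. Cells were thinned to 15000 UMIs each by random draw, which left out 851 shallower cells of 23914. Among the cells kept, the share with at least 1 UMI of a gene thus did not depend on the cell's depth. The loss was uneven in SCC6, with 262 and 14 cells left out of the cetuximab replicates and 79 and 50 of the PBS replicates. No cell type that should lack these genes was present in these cultures, so no background share from free RNA can be set beside these values. With thinning, a BMF UMI was found in 3.73% and 7.27% of SCC6 cells with PBS and in 25.8% and 16.7% with cetuximab. Cells with a BMF UMI were thus a minority under both treatments, at 5.50% ± 2.498 and 21.3% ± 6.43 (SD, n = 2). A BCL2L11 UMI was found in 17.1% and 15.4% of SCC6 cells with PBS and in 34.9% and 24.95% with cetuximab, and the 4 exact 95% binomial intervals of the treated and untreated samples did not overlap (13.98% to 18.6% over the PBS samples, 22.9% to 36.8% over the cetuximab samples). These intervals cover counting error only. PMAIP1 went the other way, from 54.6% and 47.6% of cells with PBS to 37.9% and 43.6% with cetuximab.

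**Figure D4:**
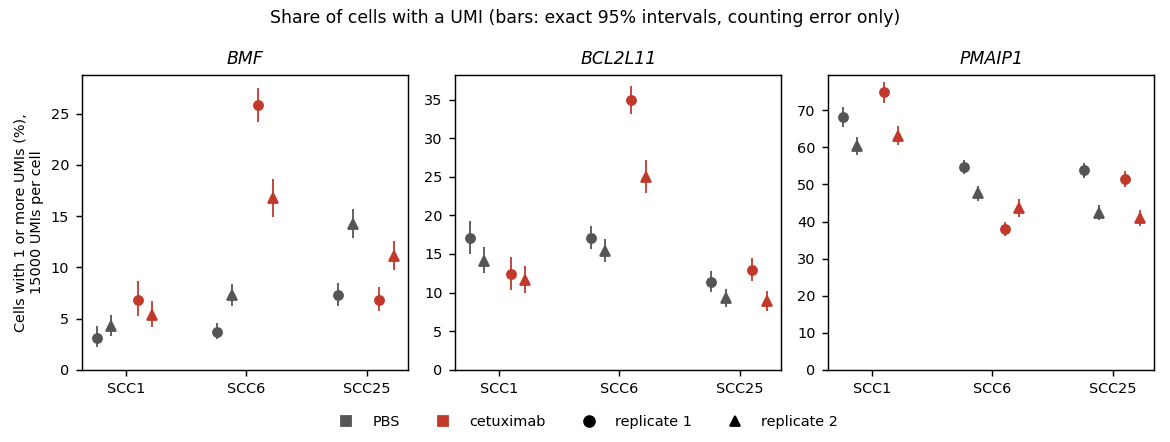
Share of cells (%, linear axis from 0) with at least 1 UMI of BMF, BCL2L11 or PMAIP1 in each sample after thinning every cell to 15000 UMIs, with exact 95% binomial intervals that cover counting error only. In SCC6 the red cetuximab symbols lie above the grey PBS symbols for BMF and BCL2L11 and below them for PMAIP1, and in SCC25 the treatments overlap.

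In SCC1 the share with a BCL2L11 UMI was 17.04% and 14.1% with PBS and 12.4% and 11.6% with cetuximab, and in SCC25 it was 11.3% and 9.31% and then 12.9% and 8.88%. The SCC25 values overlapped, while in SCC1 the treated shares were below the untreated ones. A BMF UMI was found in 3.13% and 4.27% of SCC1 cells with PBS and 6.82% and 5.35% with cetuximab. Most cells of every sample had a BAX UMI (77.9% ± 7.95 in cetuximab-treated SCC25 to 93.2% ± 0.143 in untreated SCC1; SD, n = 2), while a BCL2 UMI was found in 0.231% to 2.12% of cells as group means. The thinned UMIs of PMAIP1 had a variance over mean of 1.41 to 4.65 over the 12 samples. It was the highest of the 10 genes in every sample but the untreated ones of SCC6, where BBC3 (1.53) and BCL2L11 (1.61) were above PMAIP1. The same ratio was 1.07 to 1.204 for BAX, close to the value of 1 that random sampling of an even level gives.

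The share of cells low for cell cycle genes was measured beside these results. A list of 50 proliferation genes split the cells of each line at the median of its PBS cells. Cells at or below that median made up 53.7% and 48.4% of SCC1 with PBS and 83.4% and 65.0% with cetuximab, 63.4% and 37.0% and then 67.9% and 53.1% in SCC6, and 46.3% and 53.4% and then 57.7% and 72.1% in SCC25. In SCC6 the PBS and cetuximab shares overlapped.

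Within samples, the members divided by this split. BAX was higher in the cells high for proliferation genes in 12 of 12 samples, by a median of 0.23 on the log2(CPM + 1) scale. BBC3, BIK, MCL1 and BCL2L1 were lower there in 12 of 12 samples, with medians of -0.50, -0.42, -0.16 and -0.26, and BMF was lower in 11 of 12, with a median of -0.65. PMAIP1 (higher in 4 of 12), BAK1 (4 of 12) and BCL2L11 (7 of 12) had no shared sign. BCL2, at few UMIs, was higher there in 10 of 12 samples, with a median of 0.18. By these medians, effector BAX and the BH3-only genes BMF, BBC3 and BIK lay at opposite ends of this split. The library scale of the high and of the low cells was estimated separately, so the sign of a small ratio is uncertain. Such ratios included 0.037 for BAX and -0.011 for MCL1, both in the first untreated SCC6 sample.

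**Figure D5:**
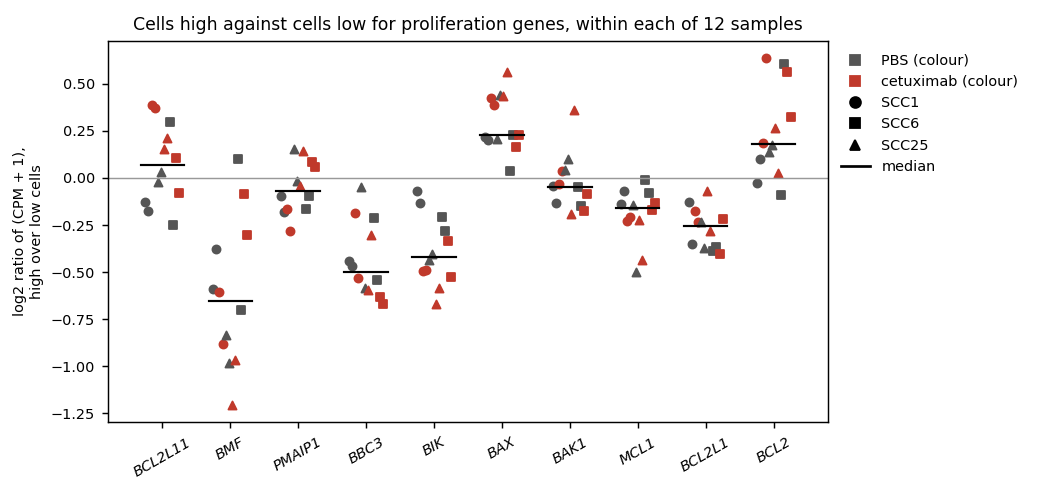
Log2 ratio of CPM + 1 in cells high for the proliferation list over cells low for it, within each of the 12 samples (colour is treatment, symbol is line, bar is the median). BAX lies above 0 in every sample, BBC3, BIK, MCL1 and BCL2L1 lie below 0 in every sample, and BMF lies below 0 in 11 of 12.

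When only cells low for the proliferation list were summed, BMF in SCC6 had a log2 change of 1.76 (edgeR FDR = 0.0807), which the blocked fit put at 1.82 (edgeR FDR = 0.0205). In the same cells and with the block, BCL2L11 had 0.77 (edgeR FDR = 0.0210) and PMAIP1 -0.70 (edgeR FDR = 0.0375), where 14.0% of all genes passed. The change of the 3 genes in SCC6 was therefore of about the same size among cells low for proliferation genes. In the cells high for the list the pairs of SCC6 samples gave 2.24 and 1.21 for BMF, 0.76 and 0.67 for BCL2L11 and -0.75 and -0.22 for PMAIP1, on the log2(CPM + 1) scale. Mitochondrial share and depth also differed among these 4 samples, with median mitochondrial shares of 3.51% and 5.67% with PBS and 4.98% and 5.65% with cetuximab, and their part in the result was not tested.

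BCL2L11 is a textbook target of FOXO transcription factors, which growth factor signalling keeps out of the nucleus, and the promoter of this gene is shown because the letters TGTTTAC, the core bound by FOXO factors, or their reverse complement GTAAACA, occurred there. Among the windows of 250 bases before the gene start in RefSeq, 1046 of 35116, or 2.98%, held these letters on either strand. Of the 10 windows that matched the family's symbols, spread over 8 of the 10 genes, the BCL2L11 window held them. The strand of the gene carries GTAAACA, beginning 223 bases before its start, so TGTTTAC reads on the opposite strand. The window, chr2:111120664-111120913 on the + strand of GRCh38.p14, reads as follows, with the match in capitals.
BCL2L11 promoter: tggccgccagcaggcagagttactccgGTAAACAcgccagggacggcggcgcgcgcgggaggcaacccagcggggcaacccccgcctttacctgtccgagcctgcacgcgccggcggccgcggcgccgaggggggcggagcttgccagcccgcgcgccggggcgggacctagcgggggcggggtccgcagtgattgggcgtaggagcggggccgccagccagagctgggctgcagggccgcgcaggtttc

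The letters TGACTCA, a site of the growth-responsive factor AP-1, occurred in 1476 windows, or 4.20%, and among the family's windows in that of BBC3. A match is a description of letters, and binding was not measured here. MCL1 and BIK had no window under their symbols, so they were not searched for these letters. The genes lie on 8 chromosomes of GRCh38.p14, with BCL2L11 at chr2:111120914-111168445, BMF at chr15:40087890-40108879, PMAIP1 at chr18:59899996-59904305 and BCL2 at chr18:63123346-63320090. BBC3 at chr19:47220824-47232860 and BAX at chr19:48954875-48961798 share a chromosome as well, and BIK lies at chr22:43110750-43129712, BAK1 at chr6:33572552-33580276, MCL1 at chr1:150574558-150579610 and BCL2L1 at chr20:31664452-31723963.

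The regulators known to act on these genes were taken as a list of 15, all measured. In SCC6 2 of the 15 passed in edgeR without the block, both lower, where 3.81% of all genes passed. MYC, a growth-promoting transcription factor, fell by 1.83 on the log2 scale (edgeR FDR = 0.0407), and TRIB3, a target of the integrated stress response, fell by 1.87 (edgeR FDR = 0.0482). Without the first PBS replicate the log2 changes were -0.91 for TRIB3 and -1.26 for MYC, and neither passed (edgeR FDR = 0.348 and 0.296). With the block 4 of the 15 passed in SCC6, 2 higher and 2 lower, against 20.1% of all genes, and FOXO1 was among the higher, with a log2 change of 1.05 (edgeR FDR = 0.00249). The median of the list in SCC6 was 0.06, and none passed in SCC1 or SCC25 without the block. With it 2 of the 15 passed in SCC1, where 4.45% of all genes did. These were FOXO1, higher at 0.68 (edgeR FDR = 0.0316), and TP73, lower at -1.76 (edgeR FDR = 0.00948). Over the 3 lines 1 of the 15 passed with the block, FOXO1 (0.69, edgeR FDR = 0.0166), against 11.6% of all genes.

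The rest of the BCL2 family was a list of 13, of which 11 were tested, since BCL2A1 and BCL2L15 did not pass the filter on low counts. None passed within a line without the block. Over the 3 lines BOK, a further member of the effector group, rose by 0.55 ± 0.12 on the log2 scale (SE, edgeR FDR = 0.0277), and with the block it also rose in SCC6, by 0.80 (edgeR FDR = 0.00887). The unblocked BOK call held in 4 of the 12 fits with 1 sample left out (log2 0.49 to 0.61). BCL2L12 fell with the block in SCC1, with a log2 change of -0.69 (edgeR FDR = 0.0359), and over the 3 lines, with -0.45 (edgeR FDR = 0.0245).

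A further list held 17 genes of the caspase cascade and of the mitochondrial steps around it. In SCC6 without the block 1 of the 17 passed, where 3.81% of all genes passed. This was VDAC1, a channel of the outer mitochondrial membrane and not a caspase. VDAC1 fell by 0.94 on the log2 scale (edgeR FDR = 0.0410). It passed in 1 of the 4 fits with 1 SCC6 sample left out (log2 -1.21 to -0.61). With the block 6 of the 17 passed in SCC6, 2 higher and 4 lower, against 20.1% of all genes. The scaffold of the apoptosome, APAF1, was among the higher, with a log2 change of 0.88 (edgeR FDR = 0.0213), and cytochrome c (CYCS), which the BAX and BAK pores release, among the lower, with -0.64 (edgeR FDR = 0.00648). The inhibitor gene BIRC5, also a cell cycle gene, passed with the block in SCC1 (-1.25, edgeR FDR = 0.0208) and over the 3 lines (-0.68, edgeR FDR = 0.0435). The median log2 change of the 17 was -0.34 in SCC6, against 0.00 over all genes.

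Of the death receptor list of 12, 11 were tested, since FASLG was too low. In SCC6 1 of the 11 passed without the block, where 3.81% of all genes did. TNFRSF10A, a receptor for the death ligand TRAIL, fell by 1.41 on the log2 scale (edgeR FDR = 0.0411), and it passed in 1 of the 4 fits with 1 SCC6 sample left out (log2 -1.66 to -1.13). With the block 2 of the 11 passed in SCC6, both lower, against 20.1% of all genes, and the second was FAS at -1.07 (edgeR FDR = 0.00926). None passed in SCC1, in SCC25 or over the 3 lines without the block.

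A list of 15 p53 targets served to set PMAIP1, BBC3 and BAX, which p53 also induces, beside other genes of that response. Over the 3 lines and without the block 4 of the 15 passed, where 3.67% of all genes did, and these 4 were higher: TP53INP1 at 1.34 (edgeR FDR = 0.0243), TP53I3 at 1.04 (edgeR FDR = 0.0166), CDKN1A at 0.69 (edgeR FDR = 0.0243) and ZMAT3 at 0.68 (edgeR FDR = 0.0426) on the log2 scale. With 1 sample left out, TP53I3 passed in 12 of 12 fits, TP53INP1 in 8, CDKN1A in 6 and ZMAT3 in 2. With the block 8 of the 15 passed over the 3 lines, 5 higher and 3 lower (FDXR, DDB2 and CCNG1), against 11.6% of all genes. PMAIP1, BBC3 and BAX did not pass there, at -0.22, -0.01 and -0.25. In SCC6 TP53INP1 rose by 2.08 (edgeR FDR = 0.0251) and GDF15, a stress-induced cytokine, fell by 3.53 (edgeR FDR = 0.0450), and the median of the 15 was 0.00. GDF15 had 550 and 77.4 CPM with PBS and 20.9 and 33.3 CPM with cetuximab, and without the first PBS replicate its log2 difference was -1.52 (edgeR FDR = 0.357). TP53INP1 passed in 2 of the 4 fits with 1 SCC6 sample left out (log2 1.57 to 2.60). With the block 9 of the 15 passed in SCC6, 5 higher and 4 lower, against 20.1% of all genes. In SCC1 3 of the 15 passed with the block, all higher (CDKN1A, TP53I3 and ZMAT3), against 4.45% of all genes. The list thus held genes called in both directions in SCC6.

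BAX had the smallest p over the 3 lines, and the genes whose levels followed it most closely were NME6 (Pearson's r = 0.976), LSM6 (r = 0.974) and TSPAN5 (r = 0.959). These correlations are of log2(CPM + 1) after subtracting each line's mean, over 12 samples that share their libraries, and the genes were picked as the 3 highest of 5313, so they are a description only.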

How the data were processed

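Single cells of 12 samples were profiled with the 10x Genomics 3′ v2 kit. According to the sources, the authors used Cell Ranger on GRCh38 and deposited UMI counts per gene and cell (unit counts, not normalised), 1 table per cell line, with a table that assigns each cell to a sample. The tables held 33538 lines for 33514 symbols; the 24 repeated symbols were summed. All deposited cells were used, and no doublet caller was run; alternatives left out the 5% of cells with most UMIs and cells over 20% mitochondrial UMIs. The members and gene lists were chosen with earlier results of these data known.

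Counts were summed per sample, filtered with edgeR's filterByExpr, scaled by TMM factors (which give the CPM printed) and fitted with edgeR 4.0.16 (quasi-likelihood, limma 3.58.1, R 4.3.3). The 6 groups shared 1 fit with 6 residual degrees of freedom. The effect over the 3 lines came from a separate fit of line and treatment, or of block and treatment. In both, differences of the effect between lines count as spread. In the fit per line with the block, the spread is that of the change between replicate numbers. FDR is Benjamini-Hochberg over the genes tested in each fit, 17897 in the main fit and 16716 in cells low for the proliferation list. DESeq2 gave no FDR for some genes in the cetuximab comparisons. Samples with the same replicate number deviated together from their group means (correlation over 17897 genes 0.642 in SCC1, 0.540 in SCC6 and 0.688 in SCC25), so the fit with the replicate number as a block within each line, which leaves 3 residual degrees of freedom, is given where it changes a call. DESeq2 1.42.0 was an alternative, with the filter, the size factors, each sample, cells high for proliferation genes and the other lines left out in turn. The model was tested on simulated data. Python 3.11.15, scipy 1.17.1 and pandas 2.3.3 were used. All 10 genes were named, with list genes called in a cetuximab comparison (up to 6 per list by FDR; block-only values were chosen after they were seen), and the 3 genes most alike for members called or, failing that, for those with the smallest p over the lines and at least 10 CPM. Coding sequences came from GENCODE 44 and promoters from RefSeq (GRCh38.p14). Depth was 57057402 to 112170073 UMIs per sample.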

Additional observations from a re-analysis of the deposited data

Results flagged for a closer look

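In the fit with the replicate block, the log2 change of BCL2L11 with cetuximab in SCC6 exceeded that in SCC1 by 1.1199 (SE 0.20, edgeR FDR = 0.0353), which was the 1 difference between lines that passed the threshold among the 10 genes and 3 pairs of lines. Both SCC6 pairs rose (0.87 and 0.62 on the log2(CPM + 1) scale) whereas the SCC1 pairs gave -0.31 and -0.29. Without the block the difference was 1.14 (edgeR FDR = 0.345). Groups of 2 samples were too small to look for single outlying samples.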

How the results depend on the processing

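The number of the 10 genes called with cetuximab in SCC6 was 1 (BMF). It was 2 (BCL2L11 and BMF) with DESeq2, 3 with the replicate block, 3 with the block in cells low for the proliferation list (an alternative chosen after seeing the data), 0 in those cells without the block, 0 with the 4 samples of the line alone, and 0 to 0 with 1 sample left out. Without a low-count filter the difference between lines passed for 1 gene (BMF, edgeR FDR = 0.0408) in place of 0. For untreated SCC25 against SCC1 the count was 1 in place of 2 in cells low for the proliferation list, with DESeq2 size factors and without the filter, and 0 to 2 with 1 sample left out; for SCC25 against SCC6 it was 4 to 7 and for SCC6 against SCC1 4 to 6. The block changed no call of the 10 genes other than BCL2L11 and PMAIP1 in SCC6 and BCL2L11 in SCC6 against SCC1. It is nested within lines and gives no value between untreated lines. Over all genes it raised the calls from 3 to 797 in SCC1, 682 to 3589 in SCC6, 0 to 175 in SCC25 and 656 to 2073 over the lines, while DESeq2 gave 271, 1660, 101 and 1771.

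Without thinning, the SCC6 shares with PBS and cetuximab were 11.6% and 38.2% for BMF, 33.8% and 55.1% for BCL2L11 and 77.1% and 64.6% for PMAIP1. BCL2 in SCC25 changed sign in cells low for the proliferation list (0.27, and 0.28 with the block). With 1 sample left out, uncalled log2 changes that crossed 0 ranged, in SCC25, from -0.30 to 0.086 (BCL2L11), -0.88 to 0.33 (BMF), -0.46 to 0.032 (PMAIP1), -0.28 to 1.16 (BIK), -0.24 to 0.18 (BAX), -0.12 to 0.37 (MCL1) and -0.22 to 0.13 (BCL2). In SCC6 they ranged from -1.28 to 0.070 (BBC3), -0.095 to 0.20 (BAK1), -0.16 to 0.062 (MCL1) and -0.46 to 0.12 (BCL2L1), and in SCC1 from -0.19 to 0.49 (PMAIP1) and -0.010 to 0.79 (BIK). The cause of these shifts was not tested. With 2 replicates per group, the spread rests on few residual degrees of freedom, and BCL2, at 7 to 172 UMIs per sample, is limited by counting error.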
